A study of Mus musculus with 4 samples.

Results

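Gdf15 and 8 other genes for secreted ligands of the TGF-beta family, namely Tgfb1, Tgfb2, Tgfb3, Inhba, Inhbb, Bmp2, Bmp4 and Bmp7, were followed across 4 RNA sequencing libraries of YAMC cells. They were taken by gene name from a table of 29179 genes, and all 9 were found in it. The set was chosen by gene name around Gdf15, and Gdf15 was selected on its lower level after Sirt6 silencing in these same libraries, so its silencing values are a description and carry no test. The cells, a conditionally immortalised mouse line that the labels call young adult colonocytes, were at passages 10 to 12 and had received 50 nM of Sirt6 siRNA (siSirt6) or negative control siRNA (siControl). They were grown at 33 °C with interferon-gamma and moved to 37 °C in medium free of interferon-gamma, and this holds for all groups. From 48 h after transfection, and for 24 h, the dishes held either medium without addition or tumour necrosis factor (TNFa in the labels, TNF here) at a dose of 100 ng/mL. Each of the 4 groups was 1 library: Sirt6 siRNA with TNF, control siRNA with TNF, and then Sirt6 siRNA and control siRNA in medium.

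The ligands of this family are made as precursors, cut by proprotein convertases and secreted as dimers. TGF-betas and activins bind receptor kinases that phosphorylate Smad2 and Smad3, whereas BMPs act mainly through Smad1, Smad5 and Smad9. Activins are dimers of the beta subunits encoded by Inhba and Inhbb. GDF15 is a distant member that is induced by cell stress, with p53 and the integrated stress response among its known inducers, and it acts on the brainstem through GFRAL and the co-receptor RET. In the gut, BMPs made mostly below the epithelium oppose Wnt signalling along the crypt, and TGF-beta restrains epithelial growth and immune cells. SIRT6 is a chromatin-bound deacylase that removes acetyl groups from histone H3.

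With a single library in each group there is no error between replicates, so the differences below are between libraries and were checked against no second culture. Library totals lay between 18793708 and 23749380 reads. Levels are the deposited read counts per 1000000 library reads after TMM scaling (normalised RPM), and each interval is a 95% interval of counting error only. "Rose" and "fell" are kept for a ratio of 2 or more, in either direction, with an interval that leaves out no change, called the size rule. Genes that reached 1 RPM in any library were compared, which kept 15274 genes and 8 of the 9 ligands. In bulk RNA, fewer cells of a type and less RNA per cell cannot be told apart. Sirt6 itself had 150 reads in Sirt6 siRNA with TNF and 352 in control siRNA with TNF, and 171 in Sirt6 siRNA in medium and 388 in control siRNA in medium. Of 16 colonic epithelial marker names, held by 18 rows of the table, 5 genes passed the filter, while Epcam, Cdx2 and Vil1 had 0 to 4 reads in each library. All 6 mesothelial markers passed the filter, with summed levels of 2918 normalised RPM in Sirt6 siRNA with TNF, 2687 in control siRNA with TNF, 3475 in Sirt6 siRNA in medium and 3172 in control siRNA in medium. One of them, Lrrn4, fell with TNF, by a log2 ratio of -1.01 in Sirt6 siRNA and -1.07 in control siRNA. Of all genes, 1.49% and 1.24% fell in these comparisons. The summed epithelial level, nearly all of it from Krt8, Krt18 and Krt19, was 1185, 1339, 1494 and 1812 in the same order. It was lower in each Sirt6 siRNA library than in its control, as Gdf15 was. Krt8 and Krt18 carried this, while Krt19 was higher with Sirt6 siRNA by a log2 ratio of 0.20 with TNF and 0.06 in medium, and the part of these genes in the results was not tested. Fibroblast and mesenchymal markers, of which 10 of 12 passed, summed to 5359, 5125, 6352 and 6125 in that order. This sum was lower with TNF than in medium, as the mesothelial and epithelial sums, Tgfb3 and Inhbb were. Of the 10 genes, 2 had a TNF ratio above 0 with Sirt6 siRNA and 4 with control siRNA. Prrx1 was among them, at log2 0.70 and 0.73. The part of these marker genes was not tested either. Immune markers summed to between 17.1 and 21.4 (3 of 7 past the filter, Ptprc at 0 in both control siRNA libraries) and endothelial markers to between 13.8 and 17.4 (3 of 6).

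The stretches before the annotated start of 4 of the genes are shown because they stand for the patterns described here, one gene lower with Sirt6 siRNA, 2 higher with TNF and 1 lower with TNF. Each has 250 bases, 5′ to 3′ on the gene's strand, from RefSeq on GRCm38.p6, ends at the base before the start, and touches no exon of GENCODE M21. They lie at chr8:70632457-70632706 on the minus strand for Gdf15, chr13:16011601-16011850 on the plus strand for Inhba, chr7:25686752-25687001 on the plus strand for Tgfb1 and chr1:119422249-119422498 on the minus strand for Inhbb. Capitals mark matches to any of 8 motifs.
Gdf15: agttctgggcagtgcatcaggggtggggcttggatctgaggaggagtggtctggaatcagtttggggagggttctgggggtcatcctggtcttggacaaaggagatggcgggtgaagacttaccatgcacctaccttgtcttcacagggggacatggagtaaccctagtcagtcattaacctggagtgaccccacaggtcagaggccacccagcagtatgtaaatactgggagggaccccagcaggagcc
Inhba: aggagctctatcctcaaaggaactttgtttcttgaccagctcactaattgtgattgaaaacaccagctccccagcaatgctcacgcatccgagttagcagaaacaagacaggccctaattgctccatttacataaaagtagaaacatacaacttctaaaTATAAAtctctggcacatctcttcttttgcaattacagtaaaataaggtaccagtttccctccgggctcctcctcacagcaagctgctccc
Tgfb1: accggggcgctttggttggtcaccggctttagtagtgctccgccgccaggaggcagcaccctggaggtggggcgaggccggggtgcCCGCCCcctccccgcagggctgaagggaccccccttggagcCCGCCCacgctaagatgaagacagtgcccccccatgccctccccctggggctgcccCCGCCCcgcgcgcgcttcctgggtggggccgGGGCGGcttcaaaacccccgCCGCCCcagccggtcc
Inhbb: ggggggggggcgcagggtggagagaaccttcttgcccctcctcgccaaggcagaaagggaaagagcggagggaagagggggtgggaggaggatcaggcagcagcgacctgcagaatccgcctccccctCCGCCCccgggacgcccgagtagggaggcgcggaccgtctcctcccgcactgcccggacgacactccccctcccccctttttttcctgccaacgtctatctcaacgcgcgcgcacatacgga

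The motifs were sought on both strands as exact letters: TGANTCA for AP-1, TGACGTCA for the cyclic AMP response element, TGATGNAA for the ATF4 composite site, TATAAA for the TATA box, GGGCGG for SP1, CACGTG for the E-box, and the NF-kB and p53 half-site consensus sequences by name. None of these overlaps another in the stretches shown. The Tgfb1 stretch, with 75.2% G and C, held 5 SP1 matches, and the Inhbb stretch, with 68% G and C, held 1. SP1 letters occurred in 32.7% of 32851 such stretches. The Inhba stretch, with 43.2% G and C, held 1 TATAAA match from 91 to 86 bases before the start, a motif found in 12.4% of stretches. The Gdf15 stretch held no match. A second annotated Gdf15 start has a CACGTG match from 83 to 78 bases before it, a motif in 6.02% of stretches, but 196 of its 250 bases lie in Gdf15 exons and it is not shown. NF-kB letters, found in 3.9% of stretches, occurred in none of the 7 stretches matched to the ligands (2 for Gdf15 and 1 each for Tgfb1, Tgfb2, Inhba, Inhbb and Bmp4). A match or its absence describes letters in these windows only.

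Gdf15 (ENSMUSG00000038508) was lower in both libraries with Sirt6 siRNA. It had 33 reads in Sirt6 siRNA with TNF, 74 in control siRNA with TNF, 39 in Sirt6 siRNA in medium and 110 in control siRNA in medium. As levels these were 1.55 normalised RPM (1.06 to 2.17) in Sirt6 siRNA with TNF against 3.95 (3.10 to 4.96) in control siRNA with TNF. In medium they were 1.62 (1.15 to 2.22) with Sirt6 siRNA against 4.86 (3.99 to 5.85) with control siRNA. Both Sirt6 siRNA libraries lay below both control libraries, and the intervals of the pairs did not overlap. Gdf15 fell 2.47-fold with TNF (log2 -1.30, -1.99 to -0.74) and 2.89-fold in medium (log2 -1.53, -2.15 to -1.04). These ratios chose the gene. Of all genes, 0.655% fell with Sirt6 siRNA in the TNF comparison and 0.524% in medium.

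With TNF the Gdf15 levels stayed within the counting error of medium under both siRNAs. The log2 ratio of TNF to medium was -0.06 (-0.78 to 0.64) with Sirt6 siRNA and -0.29 (-0.74 to 0.14) with control siRNA. With so few reads, a response inside these intervals was not detectable at this depth. Gdf15 shared none of its 50-base sequences with another gene and overlapped no annotated exon of one.

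**Figure D1:**
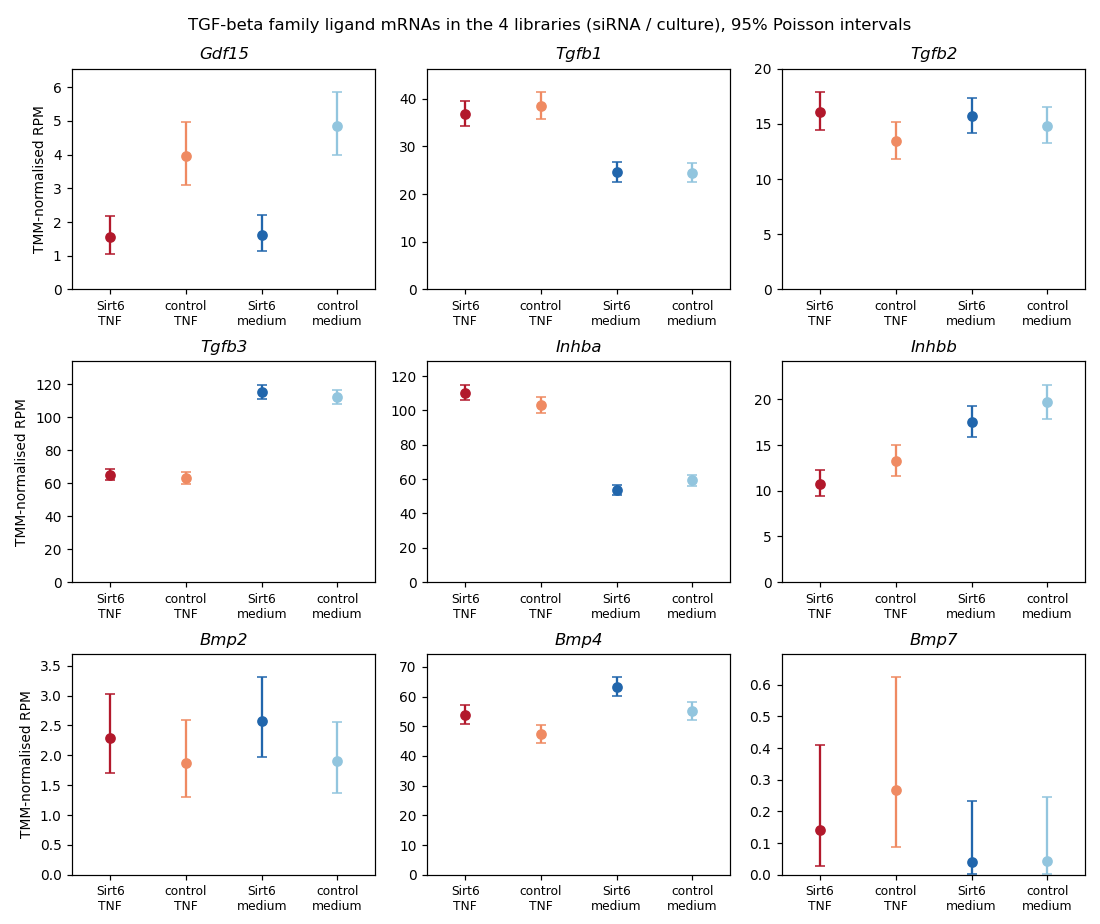
Levels of the 9 ligand mRNAs in TMM-normalised RPM (y axis, from 0, its own scale in each panel) in the 4 libraries (x axis, siRNA over culture), with 95% Poisson intervals of counting error. Gdf15 is low in both Sirt6 siRNA libraries (1.55 and 1.62), Tgfb1 and Inhba are high and Tgfb3 and Inhbb low in both TNF libraries.

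The gene whose pattern over the 4 libraries lay nearest to that of Gdf15 was Sirt6, the target of the siRNA. Likeness was the Euclidean distance between log2 levels, each gene centred on its own mean, among 9115 named genes with a mean of at least 10 normalised RPM, and it was 0.31 for Sirt6. Next came Ly6a, a surface antigen gene (0.33), the ciliary transport gene Ift20 (0.46), Prune2 (0.55) and Epb4.1l5 (0.72). Ly6a had 7.50 normalised RPM in Sirt6 siRNA with TNF, 14.3 in control siRNA with TNF, 7.69 in Sirt6 siRNA in medium and 18.7 in control siRNA in medium. Its log2 ratio for Sirt6 siRNA was -0.92 (-1.22 to -0.65) with TNF and -1.27 (-1.54 to -1.03) in medium. Ift20 had ratios of -0.84 (-1.02 to -0.66) with TNF and -1.16 (-1.33 to -0.99) in medium. Since Gdf15 was chosen for being lower with Sirt6 siRNA, genes near it share that by construction, and 4 libraries give the distance little to rest on.

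Of the 3 TGF-beta isoforms, Tgfb3 and Tgfb1 lay apart from medium in opposite directions with TNF, by less than the size rule asks. Tgfb1, the isoform released by most cells in a latent complex, had 36.9 normalised RPM (34.3 to 39.5) in Sirt6 siRNA with TNF and 38.5 (35.7 to 41.4) in control siRNA with TNF. In medium it had 24.6 (22.6 to 26.6) with Sirt6 siRNA and 24.5 (22.5 to 26.6) with control siRNA. The intervals of the 2 TNF libraries overlapped each other, and both lay above the 2 medium libraries. The log2 ratio of TNF to medium was 0.58 (0.43 to 0.74) with Sirt6 siRNA and 0.65 (0.49 to 0.82) with control siRNA.

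Tgfb3, an isoform best known from palate and lung development, had the highest level of the set per kilobase of exon in both medium libraries. It had 65.3 normalised RPM (61.9 to 68.8) in Sirt6 siRNA with TNF and 63.2 (59.6 to 66.9) in control siRNA with TNF, against 115 (111 to 120) in Sirt6 siRNA in medium and 112 (108 to 117) in control siRNA in medium. The 2 TNF libraries lay far below the medium libraries and did not differ from each other beyond counting error. The log2 ratios of TNF to medium were -0.82 (-0.92 to -0.73) with Sirt6 siRNA and -0.83 (-0.93 to -0.73) with control siRNA. The 5 genes nearest to its pattern, by the distance used for Gdf15, were Tnfsf12, Itpk1, Dpysl5, Cdkn2d and Col6a2, at distances of 0.07 to 0.09. Of its 50-base sequences, 8.79% are shared with other genes, mainly with Gm48008 on the opposite strand. The use of strand in counting is not given in the sources used here.

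Tgfb2, which binds its receptors with the help of betaglycan, was nearly level. It had 16.1 normalised RPM (14.4 to 17.9) in Sirt6 siRNA with TNF, 13.4 (11.8 to 15.2) in control siRNA with TNF, 15.7 (14.1 to 17.3) in Sirt6 siRNA in medium and 14.8 (13.3 to 16.5) in control siRNA in medium. Its intervals overlapped among all 4 libraries. The ratio of Sirt6 siRNA to control was 0.26 on the log2 scale with TNF (0.02 to 0.50) and 0.08 in medium (-0.14 to 0.30). For Tgfb1 and Tgfb3 the log2 ratios of Sirt6 siRNA to control lay between -0.06 and 0.05, with intervals that included no change.

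Per base of annotated exon, a scale that allows for gene length, Tgfb3 held the largest share of the isoforms in every library. The length joins all annotated exons of a gene, 5042 bases over 5 transcripts for Tgfb1 and 3383 over 1 for Tgfb3. Where the transcripts present are shorter than this, the level comes out too low. Sizes of shares and ratios between genes therefore depend on the length used. The Tgfb3 share of the summed isoform level per exon base was 65.7% in Sirt6 siRNA with TNF, 65.3% in control siRNA with TNF, 81.8% in Sirt6 siRNA in medium and 81.7% in control siRNA in medium. That of Tgfb1 was 24.9%, 26.7%, 11.7% and 12.0% in the same order. Within a library, where scaling between libraries plays no part, the ratio of Tgfb1 to Tgfb3 was 0.379 (0.347 to 0.414) in Sirt6 siRNA with TNF and 0.408 (0.372 to 0.448) in control siRNA with TNF. In medium it was 0.143 (0.130 to 0.156) with Sirt6 siRNA and 0.146 (0.133 to 0.160) with control siRNA. The TNF libraries did not overlap the medium libraries, and libraries of different siRNA overlapped within each culture.

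The 2 activin subunit genes also parted with TNF. Inhba, which encodes the beta-A subunit of activin A, had 110 normalised RPM (106 to 115) in Sirt6 siRNA with TNF and 103 (98.7 to 108) in control siRNA with TNF. In medium it had 53.5 (50.6 to 56.5) with Sirt6 siRNA and 59.3 (56.2 to 62.6) with control siRNA. Both TNF libraries lay above both medium libraries. Inhba rose 2.06-fold with Sirt6 siRNA (log2 1.04, 0.95 to 1.14), just past the size rule, and was 1.74-fold higher with control siRNA (log2 0.80, 0.70 to 0.90), short of it. With totals in place of TMM, or with the median of genes of like GC content subtracted, the ratio with Sirt6 siRNA was 1.00 or 0.95 on the log2 scale and below the rule. The background of genes that rose was 2.17% with Sirt6 siRNA and 2.29% with control siRNA. The difference between the responses, Sirt6 siRNA minus control siRNA, was 0.25 on the log2 scale (0.11 to 0.39), below the size of 1 asked of a difference.

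Inhbb, which encodes the beta-B subunit, had 10.8 normalised RPM (9.43 to 12.3) in Sirt6 siRNA with TNF, 13.2 (11.6 to 15.0) in control siRNA with TNF, 17.5 (15.9 to 19.3) in Sirt6 siRNA in medium and 19.7 (17.9 to 21.6) in control siRNA in medium. Both TNF libraries were below both medium libraries. The log2 ratio of TNF to medium was -0.70 (-0.94 to -0.47) with Sirt6 siRNA and -0.57 (-0.80 to -0.34) with control siRNA, neither past the size rule. Per exon base, Inhba stood to Inhbb as 6.82 (5.95 to 7.84) in Sirt6 siRNA with TNF and 5.19 (4.55 to 5.95) in control siRNA with TNF. It was 2.03 (1.82 to 2.27) in Sirt6 siRNA in medium and 2.01 (1.80 to 2.24) in control siRNA in medium. The ratio was above that of medium in both TNF libraries, and the intervals of the TNF libraries nearly touched at 5.95. It was not adjusted for GC content. With GC bin medians subtracted, the log2 ratio of TNF to medium for Inhbb was -0.53 with Sirt6 siRNA and -0.45 with control siRNA. That for Inhba was 0.95 and 0.75.

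**Figure D2:**
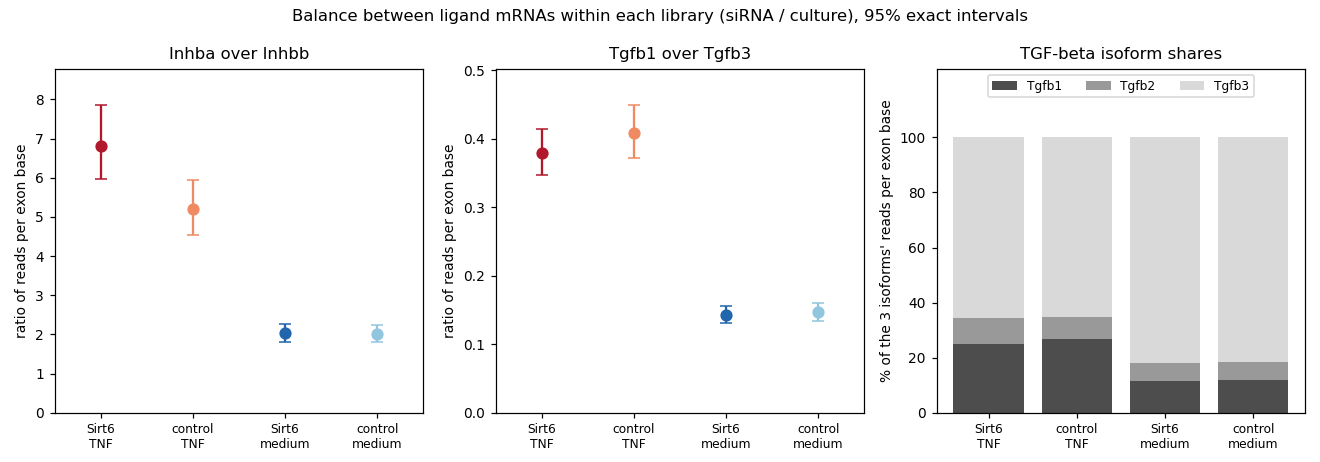
Ratios of reads per exon base within each library (y axis, from 0) for Inhba over Inhbb and Tgfb1 over Tgfb3, with 95% exact binomial intervals, and the shares of the 3 TGF-beta isoforms as stacked bars in percent. Both ratios are higher in the 2 TNF libraries (6.82 and 5.19, and 0.379 and 0.408) than in the 2 medium libraries.

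Of the BMP genes, Bmp4 was read deeply, Bmp2 thinly and Bmp7 hardly at all. Bmp4, a ligand that gut mesenchyme is known to make, had 53.9 normalised RPM (50.9 to 57.1) in Sirt6 siRNA with TNF, 47.3 (44.3 to 50.5) in control siRNA with TNF, 63.2 (60.1 to 66.5) in Sirt6 siRNA in medium and 55.2 (52.2 to 58.3) in control siRNA in medium. It was highest in Sirt6 siRNA in medium and lowest in control siRNA with TNF, and the intervals of the other libraries, between these, overlapped each other. The log2 ratio of Sirt6 siRNA to control was 0.19 with TNF (0.06 to 0.32) and 0.20 in medium (0.09 to 0.30), and that of TNF to medium was -0.23 (-0.34 to -0.12) with Sirt6 siRNA and -0.22 (-0.35 to -0.10) with control siRNA. Per kilobase of exon, the mean over the libraries was 26.3 RPM for Tgfb3, 24.4 for Bmp4, 12.8 for Inhba, 6.17 for Tgfb1, 3.60 for Inhbb, 2.59 for Tgfb2, 1.62 for Gdf15, 0.61 for Bmp2 and 0.03 for Bmp7. The leading pair changed places, with Bmp4 at 24.0 and 21.05 in the TNF libraries (Sirt6 siRNA and control siRNA) against 19.3 and 18.7 for Tgfb3, and at 28.1 and 24.5 in medium against 34.1 and 33.2 for Tgfb3. These ranks depend on the joined exon lengths used.

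Bmp2, a ligand of the same branch, had 49, 35, 62 and 43 reads, or 2.30 normalised RPM (1.70 to 3.04) in Sirt6 siRNA with TNF, 1.87 (1.30 to 2.60) in control siRNA with TNF, 2.58 (1.98 to 3.30) in Sirt6 siRNA in medium and 1.90 (1.37 to 2.56) in control siRNA in medium. All 4 intervals overlapped, and no comparison left out no change. Bmp7, known from kidney and skeletal development, had 3 reads in Sirt6 siRNA with TNF, 5 in control siRNA with TNF and 1 in each medium library. It did not pass the filter, and no ratio is given.

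**Figure D3:**
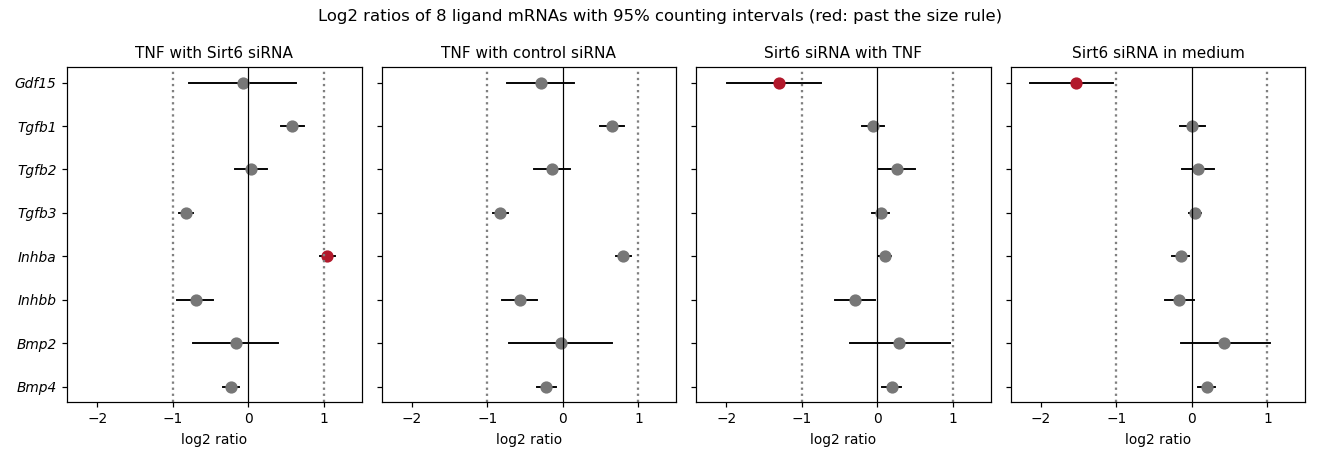
Log2 ratios (x axis) of the 8 ligand mRNAs past the filter (rows) in the 4 comparisons, with 95% counting intervals as lines, dotted lines at a ratio of 2 either way and red points for those past the size rule. Red are Inhba for TNF with Sirt6 siRNA (1.04) and Gdf15 for Sirt6 siRNA with TNF (-1.30) and in medium (-1.53).

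Of the 8 ligands, 1 rose and none fell with TNF in Sirt6 siRNA, where 3.66% of all genes passed the size rule, 2.17% higher and 1.49% lower. In control siRNA none passed, where 3.53% of all genes passed, 2.29% higher and 1.24% lower. Under either siRNA the interval lay wholly above no change for 2 ligands, Tgfb1 and Inhba, and wholly below it for 3, Tgfb3, Inhbb and Bmp4. Of all genes, 23.6% lay above and 23.8% below with Sirt6 siRNA, and 20.9% above and 22.8% below with control siRNA. The median log2 ratio of the ligands was -0.11 with Sirt6 siRNA and -0.18 with control siRNA, beside -0.01 and -0.00 for all genes.

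Of the same 8 ligands, Gdf15 fell with Sirt6 siRNA and none rose, in either culture. With TNF, 1.05% of all genes passed the size rule, 0.393% higher and 0.655% lower, and in medium 1.01% passed, 0.491% higher and 0.524% lower. With TNF the interval lay above no change for 3 ligands, Tgfb2, Inhba and Bmp4, and below it for 2, Gdf15 and Inhbb, beside 14.9% and 12.5% of all genes. In medium it lay above for Bmp4 and below for Gdf15 and Inhba, beside 14.8% and 16.7% of all genes. The ligand medians were 0.07 with TNF and 0.02 in medium, beside -0.00 and 0.00 for all genes. None of the 8 passed the rule for a difference between the TNF responses, which 1.8% of all genes passed, 0.622% with a higher and 1.18% with a lower response in Sirt6 siRNA.

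**Figure D4:**
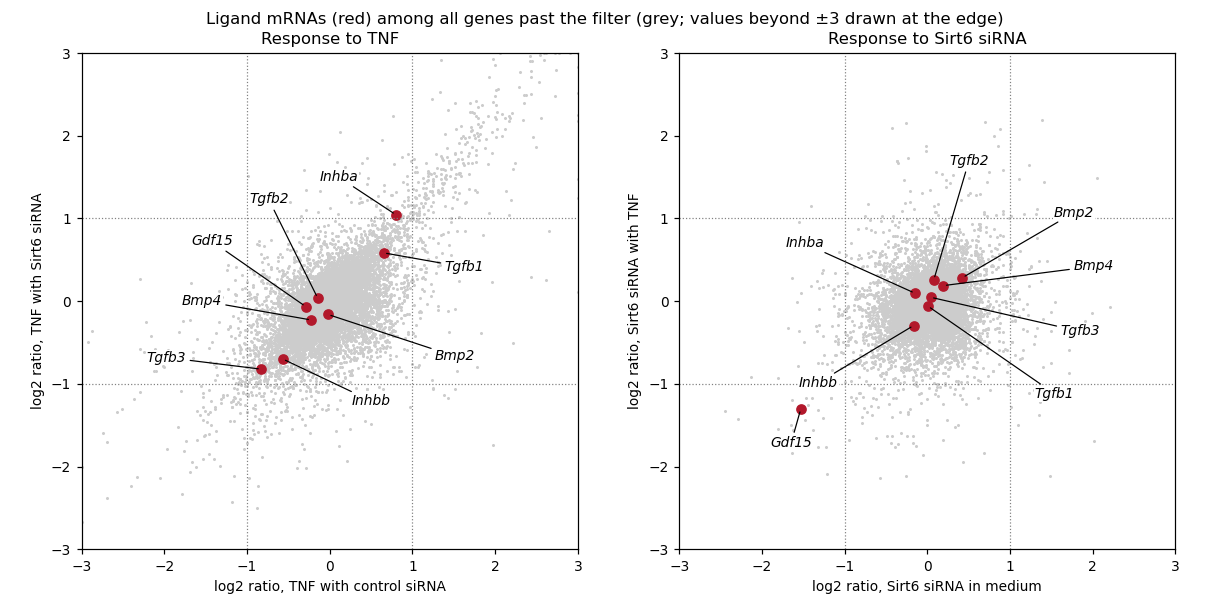
Log2 ratios of all 15274 genes past the filter (grey) and the 8 ligands (red, named). The left panel sets TNF with Sirt6 siRNA (y axis) against TNF with control siRNA (x axis), the right panel Sirt6 siRNA with TNF (y axis) against Sirt6 siRNA in medium (x axis), and the 2 axes of a panel share no library. Gdf15 stands alone among the ligands at the lower left of the right panel (-1.53 and -1.30), while Inhba and Tgfb1 lie at the upper right and Tgfb3 and Inhbb at the lower left of the left panel.

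Among 24 other ligand genes of the family, 12 passed the filter and 5 had no read (Inhbc, Mstn, Bmp10, Nodal and Gdf2). With TNF, 2 fell and none rose in Sirt6 siRNA, where 1.49% of all genes fell. In control siRNA 1 rose and 1 fell, where 2.29% of all genes rose and 1.24% fell. Bmp6, the ligand that governs hepcidin in the liver, had 16.8 normalised RPM in Sirt6 siRNA with TNF, 16.9 in control siRNA with TNF, 11.1 in Sirt6 siRNA in medium and 7.42 in control siRNA in medium. It rose 2.27-fold with TNF in control siRNA (log2 1.18, 0.92 to 1.47) and was 1.51-fold higher in Sirt6 siRNA (log2 0.60, 0.37 to 0.83), and the difference did not pass its rule. Bmp8a had 16, 14, 49 and 36 reads in the same library order and fell with TNF under both siRNAs. Its log2 ratio was -1.34 (-2.36 to -0.60) with Sirt6 siRNA, and with control siRNA it only just passed the rule (interval -2.09 to -0.16). It reached 1 RPM in the medium libraries alone, so it entered the comparisons through the libraries where it was high. It shares 8.74% of its 50-base sequences, mainly with its close relative Bmp8b. Gdf7 had 29, 33, 77 and 51 reads and fell with Sirt6 siRNA (log2 -1.18, -1.91 to -0.60), against -0.34 (-1.03 to 0.31) with control siRNA. None of the 12 passed the size rule for Sirt6 siRNA against control, where 1.05% of all genes passed with TNF and 1.01% in medium.

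Of 19 receptors and co-receptors, 14 passed the filter and 2 had no read, Tdgf1 and Gfral. Gfral, the receptor of GDF15, had no read in any library, and a floor of 3 reads stood at 0.141 normalised RPM in Sirt6 siRNA with TNF, 0.160 in control siRNA with TNF, 0.125 in Sirt6 siRNA in medium and 0.132 in control siRNA in medium. The co-receptor gene Ret had 11, 8, 28 and 16 reads in that order and fell with TNF in Sirt6 siRNA (log2 -1.05, -2.33 to -0.12). It reached 1 RPM in Sirt6 siRNA in medium alone, so it entered the comparison through the library where it was high. It was the sole receptor gene past the size rule in any comparison, and 1.49% of all genes fell in this one. None of the 13 measured genes of latency and activation passed the rule. Of all genes, between 1.01% and 3.66% passed it, by comparison. Of 12 measured antagonists, Nog, which encodes the BMP antagonist noggin, rose with Sirt6 siRNA in the TNF comparison, at 31 reads in Sirt6 siRNA with TNF against 12 in control siRNA with TNF (log2 1.08, 0.18 to 2.28). Of all genes, 0.393% rose in that comparison. In medium Nog had 34 reads with Sirt6 siRNA and 30 with control siRNA.

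Inside the cell, 1 of 18 Smads and Smad regulators passed the size rule, for TNF in Sirt6 siRNA, where 3.66% of all genes passed. Smad9, which carries BMP signals, had 6.00 normalised RPM in Sirt6 siRNA with TNF, 8.81 in control siRNA with TNF, 12.3 in Sirt6 siRNA in medium and 13.1 in control siRNA in medium. It fell with TNF in Sirt6 siRNA (log2 -1.02, -1.34 to -0.73), beside -0.56 (-0.85 to -0.29) with control siRNA. Of 13 measured BMP target genes, 3 fell with TNF in Sirt6 siRNA (Smad9, Id4 and Atoh8) and 1 in control siRNA (Atoh8), and none rose, where 1.49% and 1.24% of all genes fell. Id4, with 15, 16, 40 and 28 reads, reached 1 RPM in the medium libraries alone. The list's median log2 ratio was -0.31 with Sirt6 siRNA and -0.28 with control siRNA, beside -0.01 and -0.00 for all genes. Atoh8, a helix-loop-helix factor gene, had 13.8 normalised RPM in Sirt6 siRNA with TNF, 11.2 in control siRNA with TNF, 30.4 in Sirt6 siRNA in medium and 27.5 in control siRNA in medium. It fell with TNF by a log2 ratio of -1.13 (-1.34 to -0.94) in Sirt6 siRNA and -1.29 (-1.53 to -1.07) in control siRNA.

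For 19 measured TGF-beta and activin target genes, the median log2 ratio of TNF to medium was 0.22 with Sirt6 siRNA and 0.13 with control siRNA. For Sirt6 siRNA against control no gene of this list passed, where 1.05% of all genes passed with TNF and 1.01% in medium. The list medians were -0.01 with TNF and -0.06 in medium.

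Gdf15 was also set beside its known inducers, p53 and the integrated stress response. None of 20 p53 targets, a list without Gdf15, passed the size rule for Sirt6 siRNA against control. Their median log2 ratio was -0.03 with TNF and 0.00 in medium. Of all genes, only 1.05% passed with TNF and 1.01% in medium, with medians of -0.00 and 0.00. None of 20 measured genes of the integrated stress response passed the size rule either. Their medians were -0.05 with TNF and -0.12 in medium, and 6 and 4 of them had a ratio above 0. Short of the rule, the intervals of Chac1, Aldh1l2, Asns, Atf3 and Ddit3 lay below no change in both cultures. Of all genes, 12.5% lay below it with TNF and 16.7% in medium. Chac1 had log2 ratios of -0.60 with TNF and -0.61 in medium. The interval of Cebpb lay above no change in both, at 0.09 and 0.19. The p53 targets with intervals below no change in both cultures included Mdm2, Ccng1, Plk2 and Perp. Those with intervals above it in both included Btg2, Bbc3, Ei24 and Phlda3. Of all genes, 14.9% lay above no change with TNF and 14.8% in medium. The part of these genes in the Gdf15 levels was not tested. With TNF, 1 p53 target rose under both siRNAs, the death receptor gene Fas, by 2.39-fold with Sirt6 siRNA and 2.05-fold with control siRNA. Of all genes, 2.17% and 2.29% rose in these comparisons. No gene of the stress response list passed the size rule with TNF, where 3.66% and 3.53% of all genes passed.

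**Figure D5:**
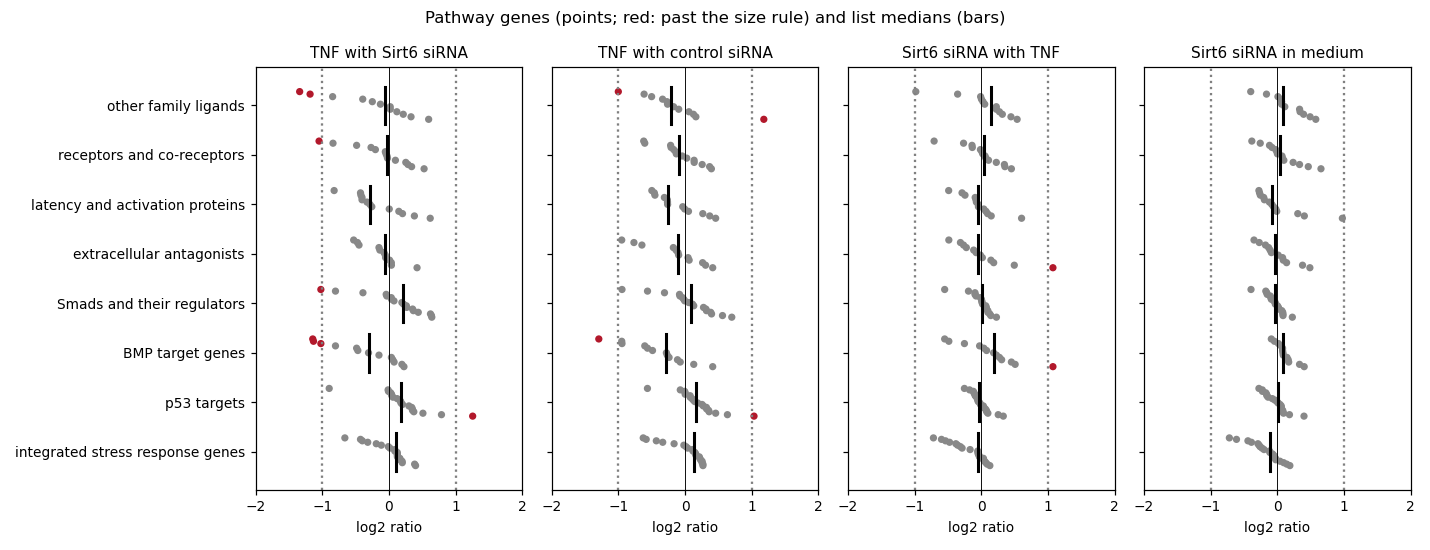
Log2 ratios (x axis) of the measured genes of 8 pathway lists (rows) in the 4 comparisons, with list medians as bars, dotted lines at a ratio of 2 either way and red points past the size rule. For Sirt6 siRNA against control, Nog is the one gene past the rule, drawn in both lists that hold it, and with TNF the BMP target medians lie at -0.31 and -0.28.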

How the data were processed

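The labels' protocols describe oligo-dT selection of RNA and NEBNext Ultra library preparation. Tools listed in the submitters' processing notes are CASAVA, Bowtie 1.0.1 and edgeR; the build, the annotation and how reads were counted are not given in the sources used here. The deposited table gives read counts per gene, per the file headers. The authors' columns headed RPKM equal RPM (reads per 1000000 library reads) to within 0.0005, so no gene length enters them. Lengths, GC content and shared 50-base sequences came from GENCODE M21, by gene ID.

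Counts were analysed with Python 3.11.15, SciPy 1.17.1 and R 4.3.3 with edgeR 4.0.16 and DESeq2 1.42.0. Genes reaching 1 RPM in any library were kept, libraries were scaled by TMM, and log2 ratios had a prior count of 2. Ratios have exact conditional binomial and levels exact Poisson 95% intervals, computed without the prior count. PCR copies cannot be told from molecules here, for want of molecular identifiers, and intervals and floors (3 reads per library) therefore cover only counting error. The difference of TNF responses passed where its log2 size reached 1 and its delta-method interval (0.5 added per count) excluded 0. The comparisons are between single libraries and carry no p-value; additive models of siRNA and TNF over all 4 libraries, with 1 residual degree of freedom, were run as alternatives. The steps were tested on simulated counts. Of list genes, up to 4 past the size rule were named, by mean absolute ratio, and the 5 genes nearest to Gdf15 and to Tgfb3, the most deeply read of the other ligands. Stress response genes and p53 targets short of the rule were named for their counting intervals. The members and lists were chosen with earlier results of these data known. The motifs, pair ratios and isoform shares were added after the values were seen. Receptors with no read were named for that reason. The values of 1 gene of the TGF-beta and activin target list are not reported here.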

Additional observations from a re-analysis of the deposited data

Results flagged for a closer look

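Inhba was set apart because its response to Sirt6 siRNA had opposite directions in the 2 cultures. Under TMM scaling each had a counting interval that left out no change. It was 1.07-fold higher than control with TNF (log2 0.10, 0.01 to 0.18) and 1.11-fold lower in medium (log2 -0.15, -0.26 to -0.04). The difference, Sirt6 siRNA with TNF minus Sirt6 siRNA in medium, was 0.25 on the log2 scale. With library totals the ratio with TNF was 0.07, a shift of -0.02. With GC bin medians subtracted the ratio in medium was -0.09, the bin median being -0.06. Each shift is larger than the gap between the TMM interval and no change, so the flag did not hold under either alternative. With 1 library per group the difference was not tested against replicates.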

How the results depend on the processing

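Of 294 ligand values recomputed under the alternatives, 267 kept their call or lack of one, and none reversed. Among these 267, 32 with no filter and 30 at 5 RPM could not change, since counts and scaling stayed the same. Values short of the rule had also to stay within their counting interval. The additive models called by an adjusted p of at most 0.05 and asked no size. Inhba with TNF in Sirt6 siRNA kept its call there at log2 0.92 and 0.93, below its counting interval and a ratio of 2. The rise of Inhba with TNF in Sirt6 siRNA did not pass with library totals (log2 1.00) or with GC bin medians subtracted (0.95); the construction of each alternative moves the value by under 0.1. Gdf15 kept its calls under every alternative that could hold it. A minimum of 5 RPM leaves it out, and DESeq2 gave no adjusted p for its silencing, so these are not counted. An additive edgeR quasi-likelihood model of siRNA and TNF (1 residual degree of freedom, common biological coefficient of variation 0.039, a spread drawn from how far the responses differ and not from replicates) gave Gdf15 a log2 ratio of -1.47 for Sirt6 siRNA, a value that carries no test because Gdf15 was selected on it. It also called Tgfb1, Tgfb3, Inhba, Inhbb and Bmp4 for TNF, and DESeq2 all of these but Bmp4. Of 15274 genes, edgeR called 4506 for TNF and DESeq2 1736, so such calls were common. In the edgeR model Inhba had a ratio near 0 for Sirt6 siRNA (-0.02), between its opposite values in medium and with TNF.

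Counts over all genes moved with the rule. Those of the additive models rest on an adjusted p of at most 0.05 with no size asked, unlike the size rule. For TNF with Sirt6 siRNA the 559 genes became 843 with no filter, 324 at 5 RPM and 1494 at a ratio of 1.5. For TNF with control siRNA the 539 became 282 at 5 RPM and 1435 at 1.5. The additive models gave 4506 for TNF with edgeR and 1736 with DESeq2. For Sirt6 siRNA with TNF the 160 became 388 with no filter, 16 at 5 RPM and 496 at 1.5. For Sirt6 siRNA in medium the 155 became 402, 14 and 487 in that order. For Sirt6 siRNA they gave 1006 with edgeR and 155 with DESeq2. The difference of the TNF responses, passed by 275 genes, was passed by 18 at 5 RPM. Apart from the construction of each rule, the cause was not tested. No paired analysis was possible because each group had 1 library. The additive models hold siRNA and culture as terms over the 4 libraries.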
